A study of Mus musculus with 6 samples.

Results

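The genes of the voltage-gated sodium and calcium channels were followed in whole cortical tissue of young and aged mice. Members were taken by gene symbol: the Scn genes for the pore-forming alpha and the accessory beta subunits of sodium channels, and the Cacna1, Cacna2d and Cacnb genes of calcium channels. The rule gave 32 genes of the 38355 listed in the count files, of which 10 encode sodium channel alpha subunits, 4 sodium channel beta subunits, 10 calcium channel alpha-1 subunits, 4 alpha-2/delta subunits and 4 calcium channel beta subunits. Cortical hemispheres of C57BL/6 mice, an inbred wild-type strain with no allele or treatment added, were compared between 6 months (3 samples) and 16 months (3 samples). The samples are separate libraries of polyadenylated RNA, and the study counts them as separate brains. A label on housing gives the younger age as 3 months, against 6 months in all other labels. Gene counts summed to between 29797253 and 46519280 per sample, and 3 counts, the limit that a count of 0 allows, correspond to between 0.0645 and 0.101 counts per 1000000 after scaling (CPM). Such limits cover counting error only.

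Voltage-gated sodium channels carry the inward current that starts and propagates the action potential. One large alpha subunit forms the pore, and beta subunits with an immunoglobulin-like domain outside the cell adjust gating and surface levels. Voltage-gated calcium channels couple depolarization to transmitter release, gene expression and burst firing: an alpha-1 subunit forms the pore, an alpha-2/delta subunit outside the membrane and a beta subunit inside it help it to reach the surface. Scn1a encodes NaV1.1, the main sodium channel of fast-spiking parvalbumin (PV) interneurons, which sustain high firing rates.

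Several alpha subunit genes of the sodium channel lie next to each other, and some share identical stretches, which bears on how reads can be told apart. In the GENCODE M21 annotation of GRCm38, Scn3a, Scn2a, Scn1a, Scn9a and Scn7a follow each other on chromosome 2, and Scn10a and Scn11a lie on chromosome 9. Their longest identical coding stretches exceeded the read length of 100 bases in 6 pairs. Scn1a and Scn2a shared 188 bases without a difference, and Scn3a and Scn9a shared 184. A read that falls whole within such a run matches both genes and, unless its mate tells them apart, is left out by a counter of unique alignments. Windows of 100 bases found in another gene as well made up 1.22% of the Scn1a transcript, 1.53% of Scn2a, 2.95% of Scn3a and 2.13% of Scn9a. Nearly the whole length of each gene was therefore available to separate them. Larger shares stood in Cacnb4 (15.3%, with the antisense gene A430018G15Rik) and Cacna1s (13.5%, with Gm37759). For both, as for 7 further members with a smaller overlap on the opposite strand, it is not known how reads of the overlap were counted. Reads of the partner may have been counted for the channel, or reads of both left out as ambiguous. The strand setting of the counting is not given in the sources used here.

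In these cortices Scn2a, Scn8a and Scn1a held most of the sodium channel alpha transcripts. Levels between genes were compared as CPM per kilobase of exon (all exons of a gene joined), and the levels of a class were then expressed as shares of its sum. The joined exons can be much longer than the transcript with the longest coding sequence, to a degree that differs by gene. Shares and orders within a class depend on the length used. Scn2a, the channel NaV1.2 of excitatory axons, held 36.3% ± 0.205 (SD, n = 3) of the alpha subunit level at 6 months and 36.4% ± 1.07 at 16 months. Scn8a, whose product NaV1.6 clusters at the axon initial segment and nodes of Ranvier, held 29.3% ± 0.917 and 29.8% ± 2.64. Scn1a held 26.2% ± 0.924 and 25.6% ± 1.11. The shares of the 3 genes did not overlap in any of the 6 samples, the Scn8a share lying between 27.0% and 32.2% and the Scn1a share between 24.4% and 26.9%. Scn3a, the channel NaV1.3 known from the immature brain, followed with 5.69% ± 0.107 and 6.06% ± 0.532. Scn7a, which encodes a sodium-sensing relative that voltage does not open in the usual way, held 1.53% ± 0.0716 and 1.19% ± 0.0846. The peripheral and muscle channels were at the bottom. The skeletal muscle gene Scn4a had between 0 and 3 counts per sample and Scn11a, a channel of pain-sensing neurons, between 1 and 4.

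**Figure D1:**
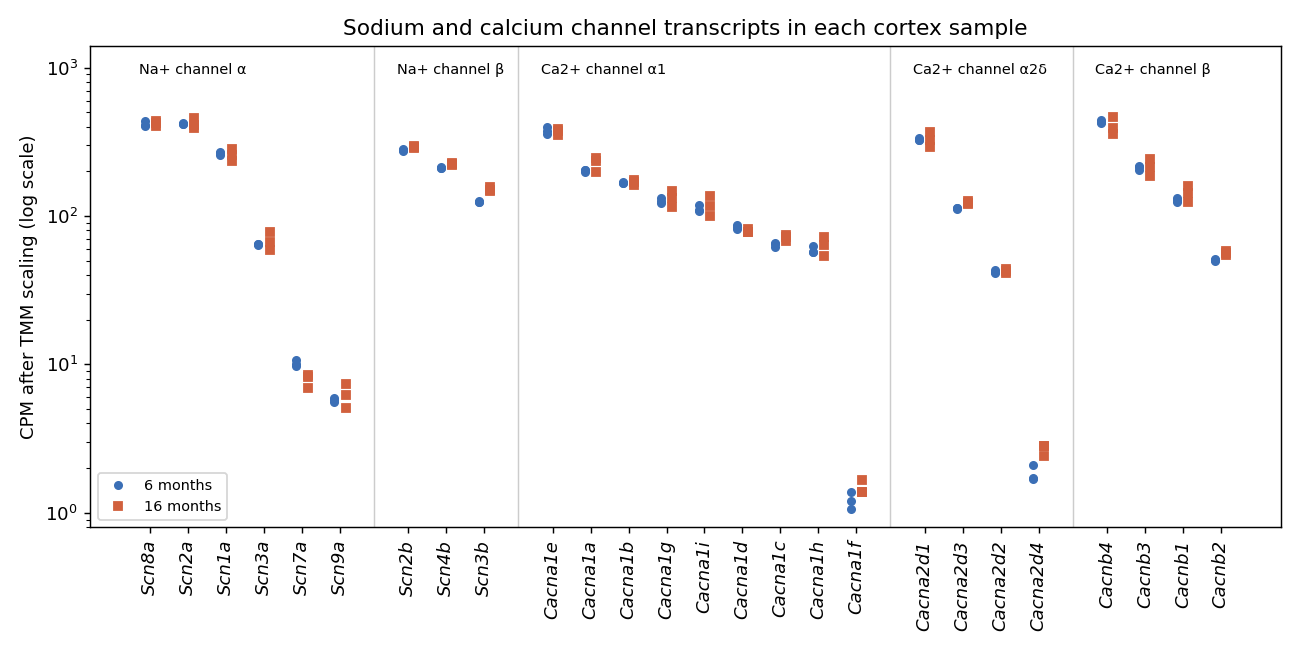
Level of each channel gene in each sample, in CPM on a logarithmic axis, for 26 members with a mean of at least 1 CPM, grouped by subunit class, with circles for 6 months and squares for 16 months. Scn8a (403.8 to 439.3 CPM) and Scn2a (390.6 to 455.4 CPM) overlap at the head of the alpha subunits, while Cacna1f and Cacna2d4 stand below 3 CPM in every sample.

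Of the sodium channel beta genes, Scn2b stood at 59.9 ± 1.25 CPM per kilobase at 6 months and 62.7 ± 1.07 at 16 months. Scn4b stood at 42.4 ± 0.226 and 45.1 ± 0.75, and Scn3b at 22.9 ± 0.295 and 27.6 ± 0.895. Scn2b was thus above Scn4b and Scn4b above Scn3b at both ages, by more than their SDs. Among calcium channel alpha-1 subunits no gene dominated by this measure. The P/Q-type gene Cacna1a, a channel of presynaptic terminals, held 19.8% ± 0.502 and 21.3% ± 0.853, and the N-type gene Cacna1b, also presynaptic, 18.9% ± 0.581 and 18.3% ± 0.786. Their shares overlapped, between 19.3% and 22.0% for Cacna1a and between 17.5% and 19.4% for Cacna1b. The R-type gene Cacna1e came next with 16.7% ± 0.512 and 15.9% ± 1.31. Its joined exons hold 25228 bases, against 14921 in the transcript with the longest coding sequence, so its place depends on the length used. The low-threshold T-type genes Cacna1g (14.0% ± 0.17 and 14.0% ± 0.645) and Cacna1i (12.7% ± 0.393 and 12.8% ± 0.945) overlapped each other, as did Cacna1d and Cacna1h near 7%. The L-type gene Cacna1c held 3.38% ± 0.0586 and 3.65% ± 0.112, with 21191 bases of joined exons against 6669 in that transcript. Cacna2d1 held most of the alpha-2/delta level (59.1% ± 0.439 and 57.1% ± 2.68), ahead of Cacna2d3 and Cacna2d2. Cacnb3 (39.7% ± 0.817 and 39.8% ± 3.85) and Cacnb4 (36.3% ± 1.22 and 33.6% ± 5.64) overlapped at the head of the calcium channel beta class by this measure. Cacnb2 held 2.87% ± 0.0221 and 3.18% ± 0.211. The order in this class depends on the length used. The joined exons hold 4010 bases in Cacnb3 and 8963 in Cacnb4, and the transcripts with the longest coding sequence 2477 and 8225.

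The ages were then compared to ask whether channel transcripts of the cortex differ in aged mice. Of the 32 members, 30 passed the filter on low counts, and Scn4a and Scn11a did not. Scn3b rose at 16 months and was the single member called by edgeR's quasi-likelihood test, Benjamini-Hochberg adjusted (adjusted p under 0.05), with 1.67% of the 17120 genes tested called in either direction and 0.783% called higher. No member was called lower by edgeR (0.888% of all genes were), and DESeq2 called Scn3b alone as well (3.03% of all genes). At an unadjusted p under 0.05 there were 7 members, with 17.4% of all genes. All 3 aged samples lay above all 3 young ones in 7 members (12.2% of all genes tested) and below them in 3 (11.5%, and 23.7% for both directions). The median log2 fold change of the members tested was 0.04, beside 0.00 over all genes tested, and their median absolute value was 0.09, beside 0.10. In bulk tissue, fewer cells of a type and less RNA per cell cannot be told apart.

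**Figure D2:**
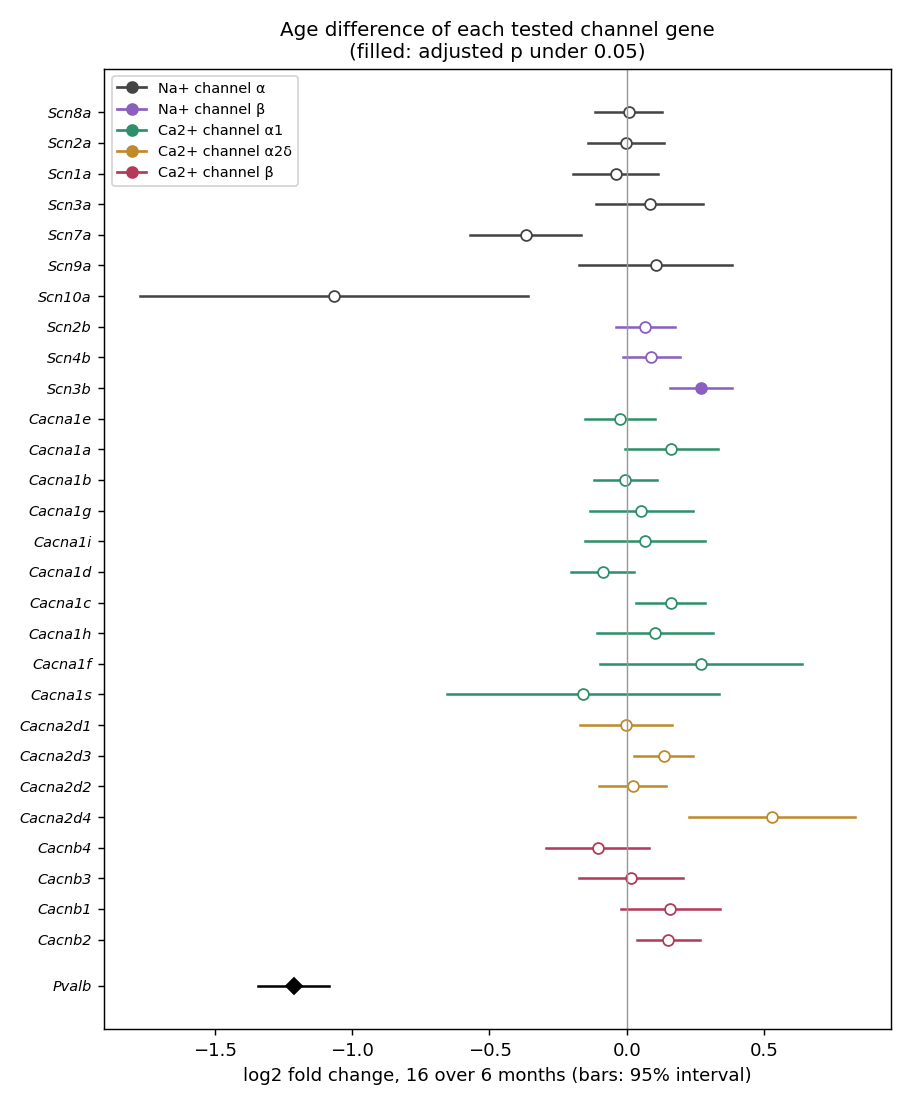
Log2 fold change of 28 tested members, 16 over 6 months, as points with bars for the 95% interval from the fit, filled where the adjusted p is under 0.05, with Pvalb as a diamond at the bottom and a line at no change. Scn3b is the filled member, at 0.27, and Scn10a and Cacna2d4 lie farthest out at -1.07 and 0.53 with wide intervals.

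Scn3b encodes the beta-3 subunit, which binds the alpha subunit without a covalent bond and is high in the developing brain. Its gene lies at chr9:40269217-40291618 on the plus strand (ENSMUSG00000049281). The samples at 6 months gave 124.5, 123.7 and 126.8 CPM and those at 16 months 146.8, 156.2 and 149.1 CPM. The lowest aged sample thus stood above the highest young sample, and both ages were tight. The log2 fold change was 0.27 with an SE of 0.05 (adjusted p = 0.0282, edgeR's quasi-likelihood test, Benjamini-Hochberg adjusted), 20.6% higher at 16 months. The call was lost when any one of the 6-month samples was left out (adjusted p = 0.174, 0.196 and 0.185 by edgeR) and without replicate 3 of 16 months (0.175), while the log2 fold change stayed between 0.24 and 0.29. Those 4 fits called no member and 0.318%, 0.328%, 0.277% and 0.335% of all genes, against 5.73% without replicate 1 of 16 months (Scn3b called) and 12.7% without replicate 2 (6 members called). Scn2b and Scn4b were higher in the aged samples too, by less than Scn3b. Scn2b, which is joined to the alpha subunit by a disulfide bond, gave 284.4, 278.7 and 272.8 CPM and then 297.7, 288.2 and 290.3 CPM (log2 fold change 0.07). Scn4b, the subunit tied to resurgent sodium current, gave 210.3, 212.3 and 210.6 CPM and then 228.8, 222.0 and 222.8 CPM (log2 fold change 0.09). For both genes the ages lay apart with differences under the threshold of the test (adjusted p = 0.508 and 0.362, edgeR).

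**Figure D3:**
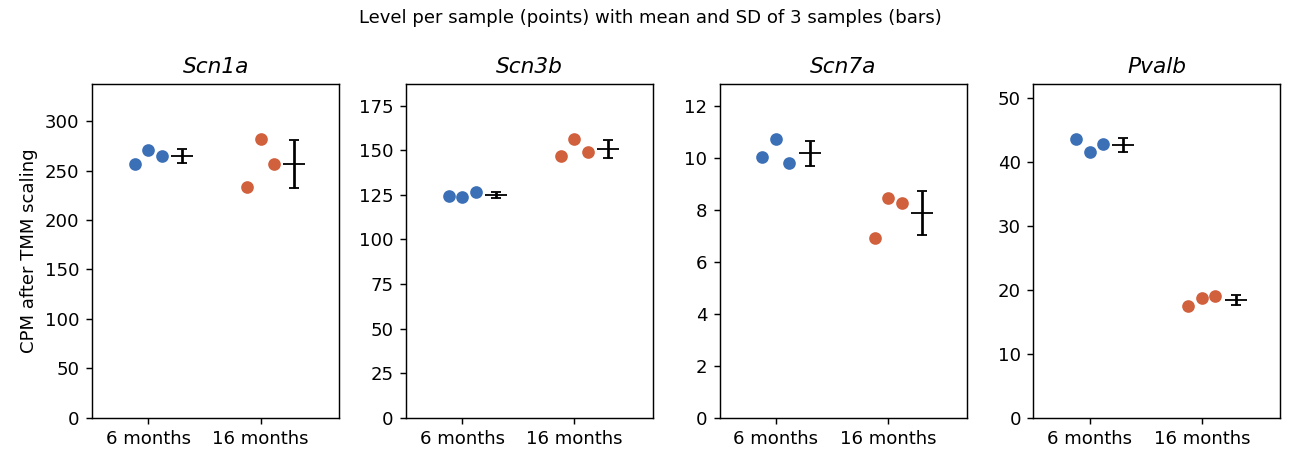
CPM in each sample for Scn1a, Scn3b, Scn7a and Pvalb, with the 3 samples of each age as points and the mean ± SD beside them, on axes that start at 0. Scn3b and Pvalb separate the ages in opposite directions, at 125.0 against 150.7 and 42.6 against 18.4 mean CPM, while the Scn1a points of 6 months fall inside the range of 16 months.

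Scn1a differed little between the ages. It gave 256.9, 271.3 and 265.2 CPM at 6 months and 233.2, 281.7 and 256.5 CPM at 16 months. The aged samples enclosed the young ones on both sides. The log2 fold change was -0.04 with an SE of 0.07 and a 95% interval from -0.20 to 0.11 (adjusted p = 0.807, edgeR's quasi-likelihood test, Benjamini-Hochberg adjusted; exact permutation p = 0.7, two-sided). Without replicate 1 of 16 months it was 0.03. Whole tissue does not show which cells gave the Scn1a reads, so its level is not a measure of PV interneurons alone. Pvalb, which encodes the calcium buffer parvalbumin of PV interneurons, moved in these libraries by far more. It fell from 43.5, 41.5 and 42.8 CPM to 17.5, 18.7 and 19.0 CPM, a log2 fold change of -1.21 with an SE of 0.06 (adjusted p = 1.49e-05, edgeR). For every 100 counts on Scn1a there were 16.9, 15.3 and 16.2 counts on Pvalb in the young samples and 7.52, 6.63 and 7.4 in the aged ones. The log2 ratio of Pvalb to Scn1a fell by 1.17, with no overlap between the ages and an exact permutation p of 0.1, the smallest that 3 samples against 3 allow. Of 11 PV interneuron markers, Pvalb alone was called by edgeR (1.67% of all genes tested were). The list includes genes that other neurons express. At an unadjusted p under 0.05 there were 4 markers, with 17.4% of all genes, and all 4 were lower at 16 months. Besides Pvalb they were Eya4, Cox6a2 and Tac1, at log2 fold changes of -0.30, -0.27 and -0.225 without a call. Pthlh was the 1 marker with all aged samples higher (log2 fold change 0.18). The summed level of all 11 markers went from between 739 and 749 CPM to between 710 and 713 CPM. That of the 10 markers other than Pvalb went from between 697 and 706 CPM to between 692 and 694 CPM. Most of this sum came from Kcnc1, Kcnc2 and Erbb4 (215.0, 158.7 and 155.3 mean CPM at 6 months). It therefore says little about markers of lower level such as Eya4, Cox6a2 and Tac1.

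Of the sodium channel alpha genes, Scn1a included, 0 of 8 tested were called by edgeR (1.67% of all genes were). There were 2 at an unadjusted p under 0.05 (17.4% of all genes), and DESeq2 called none (3.03%). Scn7a gave 10.05, 10.73 and 9.80 CPM at 6 months and 6.91, 8.45 and 8.29 CPM at 16 months. Every aged sample was below every young one. The log2 fold change was -0.37 with an SE of 0.09 (adjusted p = 0.0792, edgeR's quasi-likelihood test, Benjamini-Hochberg adjusted), and the gene passed the threshold without a filter on low counts (adjusted p = 0.0226), with offsets for GC content and length (0.00821) and without replicate 2 of 16 months (0.0178), but not without any other single sample (0.0525 to 0.304). Scn10a, a channel of pain-sensing neurons, had 24, 28 and 41 counts at 6 months and 12, 10 and 15 at 16 months. Those few counts gave a log2 fold change of -1.07 with an SE of 0.32 (adjusted p = 0.129). It passed the threshold without a filter (0.0495) and with the offsets (0.0288). Scn2a gave 424.9, 415.4 and 415.1 CPM and then 390.6, 455.4 and 407.8 CPM, and Scn8a 439.3, 410.8 and 407.2 CPM and then 435.4, 403.8 and 423.8 CPM. Neither set of ages separated, and the 95% intervals of their log2 fold changes were -0.14 to 0.14 and -0.11 to 0.13. Scn3a (log2 fold change 0.08) and Scn9a (0.10), a sensory neuron channel also found in brain, overlapped between the ages too. The alpha subunit level summed per kilobase was 90.63 ± 1.04 CPM per kilobase at 6 months and 90.02 ± 4.67 at 16 months.

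For the pore-forming genes of calcium channels, 0 of 10 were called by edgeR (1.67% of all genes were). There was 1 at an unadjusted p under 0.05 (17.4% of all genes), and DESeq2 called none (3.03%). Cacna1c, the main L-type gene of brain and heart, gave 65.5, 62.2 and 64.5 CPM at 6 months and 75.1, 67.8 and 71.9 CPM at 16 months. All aged samples were higher, with a log2 fold change of 0.16 and an SE of 0.06 (adjusted p = 0.187, edgeR's quasi-likelihood test, Benjamini-Hochberg adjusted), of 0.20 without replicate 2 of 16 months (0.0299) and of 0.12 without replicate 1 (0.178). The second neuronal L-type gene Cacna1d ran the other way, from 86.3, 82.0 and 84.2 CPM to 78.1, 77.9 and 81.7 CPM. Its ages were apart as well, at a log2 fold change of -0.09 (adjusted p = 0.413), and with the offsets it passed the threshold at -0.13 (adjusted p = 0.019). Cacna1a gave 202.9, 197.6 and 204.5 CPM and then 245.1, 197.6 and 234.2 CPM. Replicate 2 of 16 months stood at the young level and the other 2 aged samples above it, giving a log2 fold change of 0.16 (adjusted p = 0.306), 0.25 without that sample (adjusted p = 0.00877, edgeR) and 0.10 without replicate 1 of 16 months (0.378). Cacna1b had a log2 fold change of -0.01 (95% interval -0.12 to 0.11) and Cacna1e of -0.03 (-0.15 to 0.10). The T-type genes Cacna1g, Cacna1h and Cacna1i had 0.05, 0.10 and 0.07, and for each of them the aged samples reached both above and below the young ones. Cacna1f, known from photoreceptors, was at 1.22 and 1.48 mean CPM, and Cacna1s, the skeletal muscle channel, at 0.698 and 0.620.

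Alpha-2/delta genes, whose products carry alpha-1 subunits to the membrane, held 2 of the members whose aged samples were all higher (12.2% of all genes tested were). In this class 0 of 4 were called by edgeR (1.67% of all genes were). There were 2 at an unadjusted p under 0.05 (17.4% of all genes), and DESeq2 called none (3.03%). Cacna2d4, a low gene here that is best known from retina, gave 1.73, 1.7 and 2.1 CPM and then 2.81, 2.81 and 2.40 CPM. Its log2 fold change of 0.53 (SE 0.14) was the largest positive one among the members tested (adjusted p = 0.09, edgeR's quasi-likelihood test, Benjamini-Hochberg adjusted), and it passed the threshold without a filter (0.0453) and with the offsets (0.0324). Cacna2d3 gave 112.9, 112.5 and 110.7 CPM and then 121.9, 125.6 and 121.4 CPM. The replicates of Cacna2d3 were close within each age, and its log2 fold change was 0.13 with an SE of 0.05 (adjusted p = 0.194). Cacna2d1, a binding site of gabapentin drugs, gave 334.9, 323.2 and 327.4 CPM and then 293.4, 366.0 and 324.7 CPM. Its aged samples spread on both sides of the young ones, with a mean of 328.5 CPM at 6 months and 328.0 CPM at 16 months. Cacna2d2 had a log2 fold change of 0.02 (95% interval -0.10 to 0.14).

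Among the intracellular beta subunits 0 of 4 were called by edgeR (1.67% of all genes were). There was 1 at an unadjusted p under 0.05 (17.4% of all genes), and DESeq2 called none (3.03%). Cacnb2 gave 51.6, 50.1 and 50.5 CPM at 6 months and 54.6, 58.2 and 56.1 CPM at 16 months. The aged samples were all higher, at a log2 fold change of 0.15 with an SE of 0.05 (adjusted p = 0.18, edgeR's quasi-likelihood test, Benjamini-Hochberg adjusted). Cacnb1 gave 131.8, 123.6 and 127.8 CPM and then 159.0, 125.1 and 143.7 CPM, overlapping through replicate 2 of 16 months (log2 fold change 0.16, adjusted p = 0.344, edgeR). The value was 0.24 without that sample (adjusted p = 0.0186, edgeR) and 0.07 without replicate 1 (0.516). Cacnb4, the beta subunit gene mutated in the lethargic mouse, gave 425.4, 443.8 and 431.3 CPM and then 355.7, 461.8 and 390.8 CPM. Its aged samples lay on both sides of the young ones (log2 fold change -0.11, 95% interval -0.29 to 0.08). The value was -0.22 without replicate 2 of 16 months (adjusted p = 0.0221, edgeR) and -0.02 without replicate 1 (0.863). Cacnb3 had a log2 fold change of 0.02 (95% interval -0.17 to 0.21). Of the 23 members with a mean of at least 40 CPM, all had a 95% interval of the log2 fold change inside ±0.5, and 14 inside ±0.25.

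The members varied more among aged than among young samples, and the difference between replicates 1 and 2 of 16 months followed base composition. The SD of log2 CPM was larger at 16 months in 24 of the 30 members tested, with a median of 0.159 against 0.0391 at 6 months. The same share was not computed over all genes tested, so the larger spread cannot be called particular to the channel genes. GC content was taken from the longest transcript of each gene. Replicates 1 and 2 of 16 months stood apart from the other libraries over all genes: measured as log2 CPM minus the mean of the age, they followed GC content at r = 0.588 and -0.582, and the other 4 samples at between -0.13 and 0.16. The longest transcript of Cacnb2 holds 39.0% GC and that of Cacnb3 61.3%. All 9 members with at least 55% GC and at least 1 CPM were higher in replicate 1 than in replicate 2 of 16 months (median log2 ratio 0.38), and all 8 with under 45% GC were lower (median -0.31). Cacna1i, at 59.3% GC, gave 136.4 against 100.3 CPM, whereas Scn3a, at 42.1% GC, gave 59.1 against 78.0 CPM. Across the 28 members of at least 1 CPM, which share these 2 libraries, the log2 ratio and GC content had r = 0.923 and Spearman's rho = 0.908. The same ratio at 6 months had r = 0.466 and a rho of 0.456, with a median of 0.09 in the GC-rich members and of 0.01 in the GC-poor ones. Scn3b, at 47.8% GC, had nearly the same level in both libraries and a log2 fold change of 0.25 with the offsets (adjusted p = 9.54e-05, edgeR). With the offsets edgeR called 8 members, namely Scn3b, Cacna2d3, Cacna2d4, Cacnb1 and Cacnb2 higher and Scn7a, Scn10a and Cacna1d lower, where 14.2% of all genes were called (7.37% higher and 6.8% lower). Without a filter on low counts it called 4 members, Scn3b, Cacna2d4, Scn7a and Scn10a, and 2.35% of all genes.

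**Figure D4:**
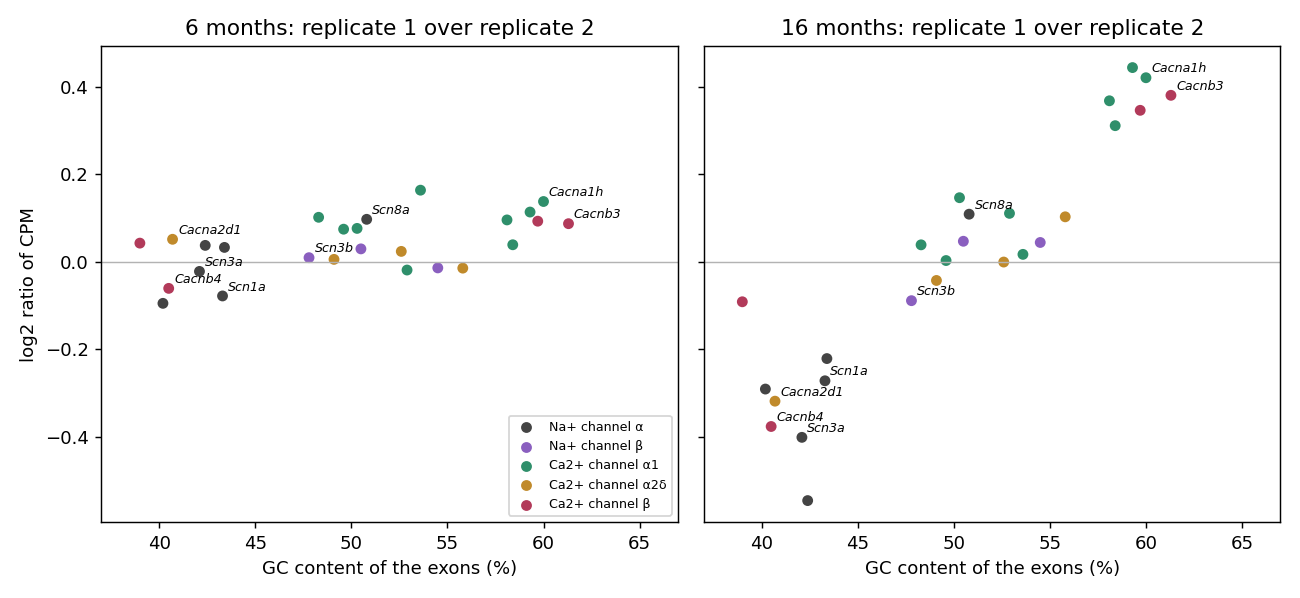
Log2 ratio of replicate 1 over replicate 2 for 26 members of at least 1 CPM against GC content in percent, at 6 months on the left and 16 months on the right. GC content is that of the longest transcript of each gene, which the axis names the exons. Points rise from lower left to upper right at 16 months, and less steeply at 6 months.

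Proteins that bind, place or regulate these channels were counted from 4 lists. Of 43 genes, 41 were tested by edgeR: 1 was called lower (0.888% of all genes tested) and none higher (0.783%). At an unadjusted p under 0.05 there were 9, with 17.4% of all genes. DESeq2 called 2 (3.03% of all genes). The gene that fell was Gem, a small GTPase that inhibits calcium channels, from 4.91, 4.90 and 5.08 CPM to 3.53, 3.29 and 3.66 CPM (log2 fold change -0.51, adjusted p = 0.0258, edgeR's quasi-likelihood test, Benjamini-Hochberg adjusted). Its samples did not overlap between the ages, and the call was lost on counts thinned to the smallest total and without any one sample of 6 months or replicate 3 of 16 months. Among 13 partners of sodium channels, Fgf13, an intracellular factor that binds their C terminus, had a log2 fold change of 0.19 (adjusted p = 0.0935), and Nedd4l, a ubiquitin ligase, 0.18 (adjusted p = 0.114). Of 8 gamma subunit genes, most known as partners of AMPA receptors, Cacng8 had 0.30 (adjusted p = 0.244) and Cacng4 0.26 (adjusted p = 0.136). Of the sodium leak channel complex, Unc80 had -0.13 (adjusted p = 0.232) and Unc79 0.11 (adjusted p = 0.298). The median log2 fold change of the 41 genes was 0.08.

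Some markers of other cells and regions moved with age in the same libraries. Over all genes tested, edgeR called 0.783% higher and 0.888% lower, and 17.4% had an unadjusted p under 0.05. All aged samples lay above all young ones in 12.2% of all genes. The counts of this paragraph stand beside those shares. The lists were chosen with earlier results of these data known, so their counts are not an independent test. Cortical excitatory genes were high, with Slc17a7 at 976 and 1091 mean CPM (log2 fold change 0.16) and Nrgn at 949 and 1053 (0.15). Both overlapped between the ages, other members went as low as -0.11, and the list median was 0.05. The summed level of the 11 excitatory markers was between 5480 and 5730 CPM at 6 months and between 5650 and 6550 CPM at 16 months. The 13 GABAergic markers summed to between 1550 and 1590 CPM and then to between 1690 and 1720 CPM. Dlx2 was at a log2 fold change of 0.20 with overlapping ages, other members went as low as -0.12, and the list median was 0.10. By edgeR neither list had a call (2 excitatory and 3 GABAergic markers at an unadjusted p under 0.05). Of 7 thalamus markers 5 were called higher, their sum going from between 91.8 and 94.1 CPM to between 119 and 131 CPM, with Shox2 at 0.105 and then 1.74 mean CPM. Of 6 dentate gyrus markers 3 were called higher (summed 67.6 to 70.8 CPM, then 89.0 to 92.4 CPM), of 7 choroid plexus markers Ttr, of 7 striatum markers Pde10a (log2 fold change 0.31) and of 6 markers of oligodendrocyte precursors Gpr17 and Neu4. Of 7 astrocyte markers Gfap fell (log2 fold change -0.47), while 4 others were higher in all aged samples without passing the test (Aldh1l1, Gja1, Slc1a3 and Slc1a2, at 0.25, 0.22, 0.20 and 0.15). The median of the astrocyte list was 0.15, and its sum went from between 6330 and 6690 CPM to between 6830 and 7520 CPM. Of 8 oligodendrocyte markers Cldn11 rose (0.28) and Ermn was at -0.43 without a call, and of 7 microglia markers Aif1 fell (-0.43) and Csf1r was at 0.25 without a call. Among 8 vascular markers none was called (2 at an unadjusted p under 0.05), with Ly6c1 at a log2 fold change of 0.19 and Cldn5 at -0.19, and among 4 skeletal muscle markers tested none was called (0 at an unadjusted p under 0.05), with Mylpf at -0.09 and Myh1 at -0.03. The part of these tissue shares in the values of Scn3b and the other channel genes was not tested.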

How the data were processed

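Adult cortical hemispheres were frozen, polyadenylated RNA was prepared with a TruSeq kit and sequenced as paired reads of 100 bases. The authors trimmed reads, aligned them to mouse genome mm10 with STAR and deposited raw counts per Ensembl gene, which their methods credit to HTSeq. The processing notes of the submitters name STAR 2.3.0e and featureCounts 1.5.0-p1 instead, and the deposited files end with HTSeq summary lines. The Ensembl release and strand setting are not given in the sources used here. Identifiers of 36602 genes were found in GENCODE M21 and those of 1753 were not.

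Counts were fitted in edgeR 4.0.16 (R 4.3.3) with TMM normalization, the filterByExpr filter, the quasi-likelihood test without covariates and Benjamini-Hochberg adjustment at 0.05 over 17120 genes. CPM are scaled by TMM, except the limits given for a count of 0. For single values, exact permutation tests were used. Alternatives were DESeq2 1.42.0, other normalizations and filters, robust and newer fits, thinned counts, a replicate block, offsets for GC content and length (20 bins) and leaving out each sample. The members and gene lists were chosen with earlier results of these data known. Members of at least 1 CPM or called were described singly, except some genes that are not reported here, Pvalb was set beside Scn1a, and of other lists the called genes were named, or the 2 with the largest change where none was called. In simulated counts for the comparison of 16 with 6 months on 17120 genes, 10.7% of changes of 0.25 on the log2 scale were recovered, 86.7% of 0.5 and 100% of 1, with 3.15% false calls. The simulation gave both ages the same dispersion, held no shift with GC content and placed no change in the genes of lowest count. Its rates therefore do not cover the GC-related spread of the aged libraries.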

Additional observations from a re-analysis of the deposited data

How the results depend on the processing

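The number of channel genes called was 1 in the reported fit and 4 with no filter, 2 with the replicate block (4.57% of all genes), 8 with the GC and length offsets, 10 with offsets and block (19.4% of all genes), 1 under the other alternatives on all 6 samples, and between 0 and 6 when 1 sample was left out. It was 0 without any single 6-month sample or the third aged one, and 6 without the second aged one. Scn3b was called under every alternative that kept all 6 samples. Over all genes, 286 calls became 648 with no filter, 471 with DESeq2, 783 with the block, 2425 with the offsets, 3321 with offsets and block, and between 48 and 2211 with 1 sample left out. Partner genes went from 1 call to 2 with DESeq2, 3 with the block, 11 with the offsets, 14 with offsets and block, 0 with thinned counts, and between 0 and 15 with 1 sample left out. The cause was not tested.

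Replicate numbers are shared by the ages but not by mice, and deviations of samples with one number correlated at r = 0.18, 0.0958 and 0.0351 for numbers 1, 2 and 3, so no pairing was assumed. With the block the Scn1a log2 fold change was -0.0447, Scn7a was called at -0.374 (adjusted p = 0.0277, edgeR), and Scn3b stayed called (adjusted p = 0.0125, edgeR).

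Several members that were not called changed sign. With the offsets the log2 fold change was -0.0133 for Cacna1g, -0.00036 for Cacna1i, 0.0422 for Cacna2d1, -0.0197 for Cacna2d2, -0.0407 for Cacnb3, 0.00612 for Scn2a and -0.0479 for Scn8a. With offsets and replicate block it was -0.013 for Cacna1g, 0.0427 for Cacna2d1, -0.0217 for Cacna2d2, -0.0409 for Cacnb3, 0.00595 for Scn2a and -0.0476 for Scn8a. Upper quartile normalization gave -0.00823 for Scn8a, and thinned counts 0.00481 for Cacna1b.

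With 1 sample left out, the log2 fold change ranged from -0.111 to 0.025 for Scn1a, -0.0684 to 0.0441 for Scn2a, -0.0247 to 0.176 for Scn3a, -0.0185 to 0.0413 for Scn8a and -0.0345 to 0.231 for Scn9a. It ranged from -0.0308 to 0.024 for Cacna1b, -0.0581 to 0.017 for Cacna1e, -0.0411 to 0.141 for Cacna1g, -0.00194 to 0.205 for Cacna1h, -0.053 to 0.169 for Cacna1i, -0.0882 to 0.0717 for Cacna2d1, -0.00563 to 0.0453 for Cacna2d2 and -0.0807 to 0.108 for Cacnb3.

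In the simulated counts, most log2 differences of 0.25 were not recovered by the reported fit. With the offsets, members near 0.10 were called in the real counts (Cacna2d3 at 0.104, Cacnb1 at 0.105).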
